A study of Mus musculus with 4 samples.

Results

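Matrix metalloproteinases and their tissue inhibitors were followed through the cell classes of mouse hearts with and without a recent infarct. The set was defined by gene symbol in the deposited feature lists and holds 10 of 32287 features, the 6 proteases Mmp2, Mmp3, Mmp8, Mmp9, Mmp12 and Mmp14 and the 4 inhibitors Timp1, Timp2, Timp3 and Timp4. All 10 were found in the feature lists, and the members were chosen with earlier results of these data known. UMIs, which count distinct RNA molecules, were summed over the cells of a class in each library and are given as CPM, counts per 1000000 UMIs of that sum.

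The study asked what TCF21, a transcription factor of cardiac fibroblasts, does in the heart, and it sequenced single live nucleated interstitial cells by droplet 10x chemistry. There were 4 libraries, 1 per group. The first group carried Tcf21-MerCreMer:flox, in which tamoxifen switches on a Cre recombinase made from the Tcf21 locus, beside a floxed allele, and was taken 3 days after myocardial infarction, the death of heart muscle after loss of its blood supply. The second carried Tcf21-MerCreMer without the floxed allele, also 3 days after infarction. The third and the fourth were Tcf21-MerCreMer:flox and Tcf21-MerCreMer hearts without infarction. All 4 groups received tamoxifen, and all carried the recombinase. The labels give neither the floxed part of the gene, nor animals per library, nor the animals' age. Tcf21 itself stood at 32.6 CPM in flox and 22.1 CPM in control fibroblasts after infarction, and at 145.6 CPM in flox and 95.6 CPM in control fibroblasts without infarction. It was thus higher, not lower, in the libraries labelled with the floxed allele, which are therefore called flox-labelled throughout. Counting here reads the 3′ ends of transcripts, so this does not check the deletion.

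Library totals ran between 55710468 and 129704045 UMIs over 9149 to 11541 barcodes, and 8289 to 10142 cells per library were kept. Any pair of libraries shared between 19 and 41 barcodes, at most 0.377% of the smaller library. Fibroblasts numbered 1485 flox-labelled and 987 control cells after infarction, and 1981 flox-labelled and 1884 control cells without it. All 11 fibroblast markers were found in each of the 3 fibroblast clusters. Neutrophils numbered 3379 and 3393 cells after infarction, flox-labelled before control, against 103 flox-labelled and 37 control cells without infarction, and the number of control cells is under the 50 cells set as the least for a comparison. No cluster was named as cardiomyocytes. Cluster 9, led by Tnnt2, Actc1 and Tnnc1, genes of heart muscle, stayed without a name, as its markers pointed to endothelial cells as well, and held 37 flox-labelled and 10 control cells after infarction and 878 and 439 without. With 1 library per group no test was possible and no p-value is given. A gene was counted as higher or lower when its CPM differed by at least 1.5-fold with at least 30 UMIs in 1 of both sums. Parentheses after a log2 ratio hold its exact 95% Clopper-Pearson interval, which covers counting error only and not the spread between animals.

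Matrix metalloproteinases are zinc-dependent enzymes, mostly secreted as inactive precursors, that cut collagens and other components of the extracellular matrix. MMP2 and MMP9 are the gelatinases, MMP3 is stromelysin-1, MMP8 is the collagenase of neutrophil granules, MMP12 is the elastase of macrophages, and MMP14 is a membrane-bound enzyme that activates the MMP2 precursor on the cell surface together with TIMP2. The TIMPs bind the active site of these enzymes. TIMP3 is held in the matrix and also inhibits several ADAM and ADAMTS enzymes, and TIMP4 is known for its presence in the heart. After infarction the balance of proteases and inhibitors is known to shape how dead muscle is cleared and how the scar forms.

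The genes Mmp12, Mmp3 and Mmp8 lie on chromosome 9 (GRCm38) within 224 kb of each other, in a row of 9 matrix metalloproteinase genes that spans 427 kb. Mmp12 runs over chr9:7344381-7369499, Mmp3 over chr9:7445822-7455975 and Mmp8 over chr9:7558456-7568485, all on the plus strand. Each of the 3 was highest in a different cell class, which is why their promoters are shown beside that of Timp1, on the plus strand of chromosome X at 20870166 to 20874735, which differed widely with infarction in fibroblasts. The windows below run from 250 bases before to 50 bases after the start site in RefSeq (GRCm38.p6), and 8 of the 10 members have such a window. They were searched on both strands for TGANTCA, the core motif of AP-1 factors, which reads the same on both strands, and for TATAAA, the TATA box. Capitals mark the matches, and Mmp12 has an upstream and a downstream start site in RefSeq.
Mmp3 (chr9:7445572-7445871, plus strand): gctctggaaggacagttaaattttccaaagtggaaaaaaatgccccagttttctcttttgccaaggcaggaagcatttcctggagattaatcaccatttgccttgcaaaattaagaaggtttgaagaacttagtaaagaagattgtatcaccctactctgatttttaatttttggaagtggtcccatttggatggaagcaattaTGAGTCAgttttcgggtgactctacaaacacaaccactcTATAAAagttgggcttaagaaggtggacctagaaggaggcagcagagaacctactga
Mmp8 (chr9:7558179-7558478, plus strand): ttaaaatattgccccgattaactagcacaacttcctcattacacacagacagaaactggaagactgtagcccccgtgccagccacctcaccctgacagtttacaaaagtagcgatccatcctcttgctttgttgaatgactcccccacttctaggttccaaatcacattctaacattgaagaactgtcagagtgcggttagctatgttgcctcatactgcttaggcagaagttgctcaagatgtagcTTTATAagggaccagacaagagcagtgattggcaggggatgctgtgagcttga
Mmp12, upstream start (chr9:7344147-7344446, plus strand): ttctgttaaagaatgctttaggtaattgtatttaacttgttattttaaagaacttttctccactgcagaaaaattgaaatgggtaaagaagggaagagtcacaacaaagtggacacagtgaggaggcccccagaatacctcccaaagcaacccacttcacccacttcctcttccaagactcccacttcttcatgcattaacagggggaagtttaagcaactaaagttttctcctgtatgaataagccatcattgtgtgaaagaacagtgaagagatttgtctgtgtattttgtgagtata
Mmp12, downstream start (chr9:7347124-7347423, plus strand): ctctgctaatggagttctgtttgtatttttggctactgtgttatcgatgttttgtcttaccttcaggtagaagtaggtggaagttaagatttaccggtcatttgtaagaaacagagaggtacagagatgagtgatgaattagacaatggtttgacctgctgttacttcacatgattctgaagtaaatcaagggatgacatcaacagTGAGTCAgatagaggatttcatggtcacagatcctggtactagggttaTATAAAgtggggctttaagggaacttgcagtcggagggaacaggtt
Timp1 (chrX:20869916-20870215, plus strand): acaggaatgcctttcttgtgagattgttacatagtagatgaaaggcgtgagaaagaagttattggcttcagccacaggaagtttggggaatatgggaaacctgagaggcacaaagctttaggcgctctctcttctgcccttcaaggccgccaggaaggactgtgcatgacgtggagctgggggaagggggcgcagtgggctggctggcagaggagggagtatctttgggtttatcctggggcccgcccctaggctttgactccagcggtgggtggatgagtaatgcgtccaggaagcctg
The Mmp3 window held TGANTCA with its first base at position -46 from the start and TATAAA at position -7. The downstream Mmp12 window held TGANTCA at position -44 and TATAAA at position 4, and its upstream window held neither. The Mmp8 window held TATAAA on the opposite strand at position -3 and no TGANTCA. The Timp1 window, like those of Timp2, Timp3, Timp4 and Mmp14, held neither. Of 32851 windows of 300 bases, 7.81% held TGANTCA and 13.6% held TATAAA. A match is a string of letters in this window and not a binding site.

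Most members had a characteristic source. Mmp2, Mmp3, Timp1 and Timp2 were highest in fibroblasts in all 4 libraries, Mmp12 in mononuclear phagocytes (monocytes and macrophages) in all 4, and Timp4 in endothelial cells in all 4, among the classes with a name. Clusters without a name held more Timp4 than that without infarction, at 389.8 CPM in the flox-labelled and 700.9 CPM in the control library. Mmp8 and Mmp9 were highest in neutrophils in each of the 3 libraries with at least 50 of those cells. In the control library without infarction, its 37 neutrophils still held 91.1% of the 56 UMIs of Mmp8 and 81.0% of those of Mmp9. Fibroblasts contributed the most UMIs of 6 members in the flox-labelled and of 5 in the control library after infarction, and of 6 in the flox-labelled and 5 in the control library without it. Timp3 was spread over fibroblasts, endothelial cells and mural cells, the pericytes and smooth muscle cells around vessels. Mmp14 without infarction was highest in fibroblasts and next in mural cells, with endothelial cells far below at 9.26 CPM flox-labelled and 13.2 CPM control. After infarction it was spread over fibroblasts, mural cells and endothelial cells, followed by mononuclear phagocytes at 105 CPM flox-labelled and 88.0 CPM control.

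**Figure D1:**
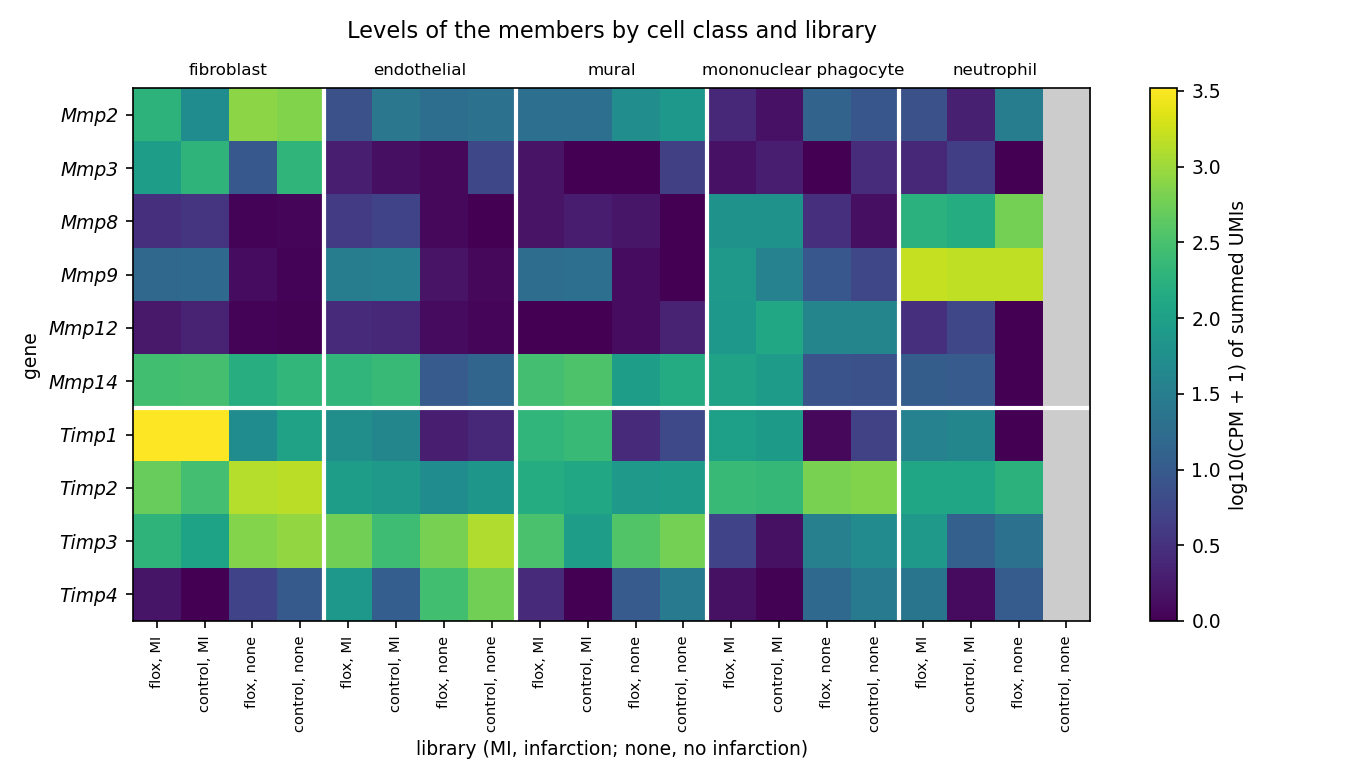
Colour gives log10(CPM + 1) of the UMIs summed over the cells of 1 class in 1 library, for the 6 proteases above the white line and the 4 inhibitors below it. Columns are the libraries of each class, and grey marks the 37 neutrophils of the control library without infarction, too few to compare. The bright cells sit in fibroblasts for Mmp2, Timp1 and Timp2 and in neutrophils for Mmp8 and Mmp9.

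The level in a class and the share of all UMIs from it can differ. Mmp8 stood at 174 CPM in flox-labelled and 148 CPM in control neutrophils after infarction, above the 60.8 and 61.8 CPM of mononuclear phagocytes in the same libraries. Yet mononuclear phagocytes held 63.7% of the Mmp8 UMIs of the flox-labelled and 72.8% of those of the control library. A neutrophil carried a median of 2256 and 2132 UMIs and a mononuclear phagocyte one of 16740.5 and 16723.5. Without infarction neutrophils held 91.8% of the flox-labelled and 91.1% of the control Mmp8 UMIs. Timp2 shows a like pattern. Fibroblasts had its highest level in every library, but mononuclear phagocytes held 35.9% of its UMIs in the flox-labelled and 52.4% in the control library after infarction, against 7.41% in the flox-labelled and 10.5% in the control library without it. Of the Mmp14 UMIs, mononuclear phagocytes held 28.5% and 30.4% after infarction against 0.678% and 0.700% without, flox-labelled before control in each pair.

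**Figure D2:**
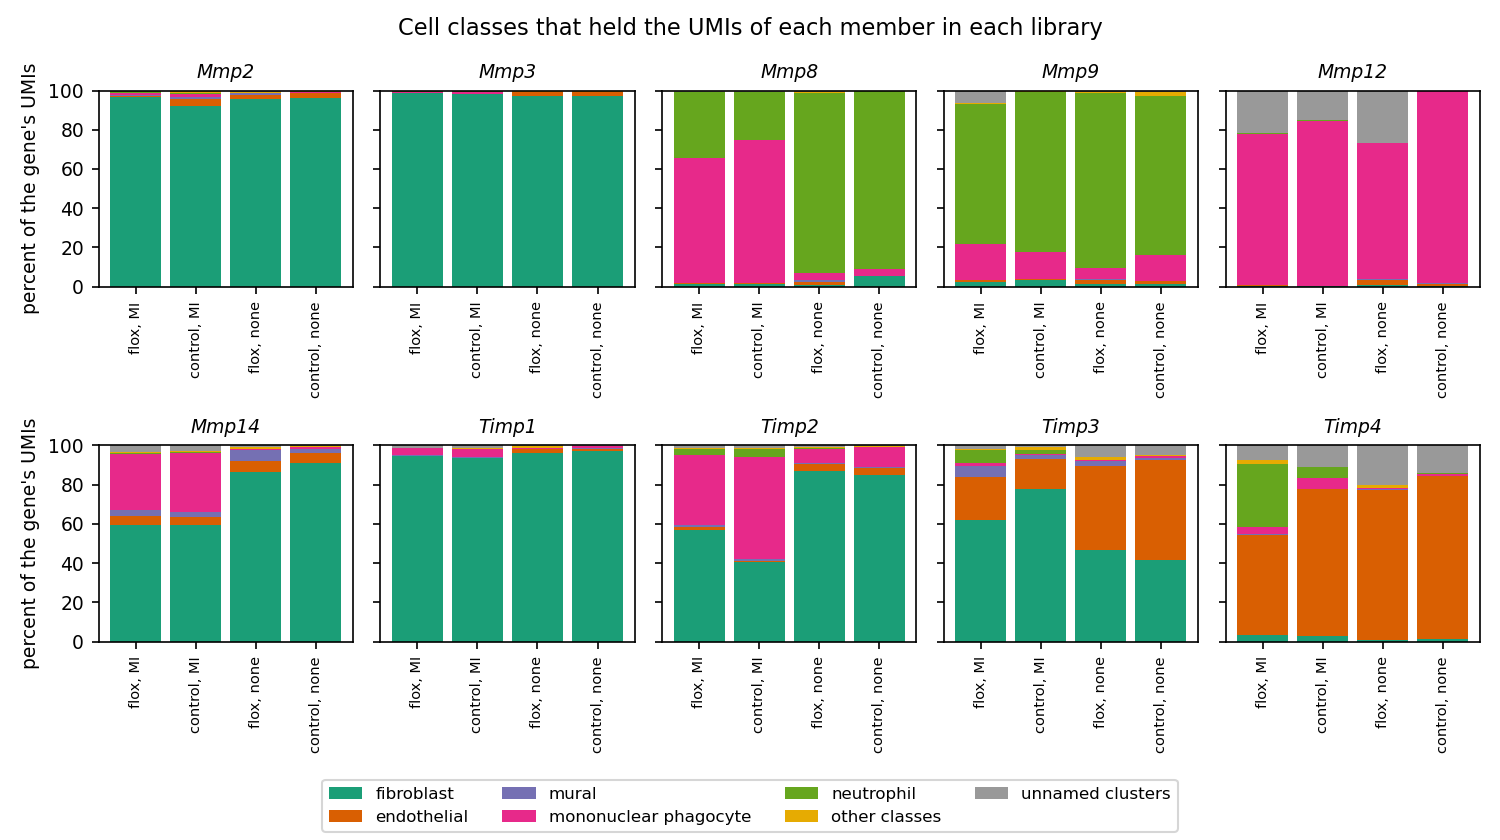
Each bar is 1 library, split by the percent of a gene's UMIs that came from each cell class, with clusters left without a name in grey. Fibroblasts fill the bars of Mmp2, Mmp3 and Timp1 in all 4 libraries, whereas the main source of Mmp8 UMIs is mononuclear phagocytes in both infarction libraries and neutrophils in both libraries without infarction.

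Mmp2, a gelatinase of connective tissue, had much lower levels in fibroblasts after infarction. It stood at 185 CPM in flox-labelled and 51.1 CPM in control fibroblasts after infarction, and at 797 CPM in flox-labelled and 713 CPM in control cells without infarction. Both infarction libraries lay below both others, and the control one was lowest. Infarction against none gave a log2 ratio of -2.11 (-2.15 to -2.07) in the flox-labelled libraries, 4.32-fold lower, and of -3.80 (-3.88 to -3.73) in the control ones, 13.9-fold lower. Between the infarction libraries fibroblast Mmp2 was 3.61-fold higher in the flox-labelled one (log2 ratio 1.85 (1.78 to 1.93)), while without infarction the difference was 0.16 (0.13 to 0.19), under the 1.5-fold limit.

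Mmp3, stromelysin-1, which cuts matrix proteins and activates other metalloproteinases, set the flox-labelled library without infarction apart from the other 3. It stood at 91.9 CPM in flox-labelled and 191 CPM in control fibroblasts after infarction, and at 8.40 CPM in flox-labelled and 202 CPM in control cells without infarction. The flox-labelled level without infarction was 24.1-fold lower than the control one (log2 ratio -4.59 (-4.79 to -4.40)), the widest ratio between genotypes of any member in fibroblasts. After infarction the flox-labelled level was 2.08-fold lower (log2 ratio -1.06 (-1.12 to -0.99)). Infarction against none gave 3.45 (3.26 to 3.65) in the flox-labelled libraries and -0.08 (-0.14 to -0.03), under the limit, in the control ones. These 2 contrasts each share a library with the genotype contrasts, so the low level of 1 library enters both. Of fibroblasts thinned to 2000 UMIs, 7.76% of flox-labelled and 16.2% of control cells after infarction, and 1.37% of flox-labelled and 12.2% of control cells without it, had a Mmp3 UMI. Before thinning these shares were 20.7%, 42.7%, 4.14% and 21.1% in the same order, at median depths of 19855, 31677, 13484 and 10533 UMIs. In B cells, which should lack Mmp3, the thinned shares were 0.235%, 1.19%, 0% and 1.10%, at median depths of 2668, 2349, 4105 and 3166 UMIs. The share of 0% rests on 151 cells and its exact upper bound is 2.41%. Thinning left out 29, 13, 8 and 8 shallower fibroblasts and 51, 142, 12 and 22 B cells. Endothelial cells showed the same low library at a far lower level, with 0.171 CPM in flox-labelled and 4.72 CPM in control cells without infarction. Both are under 0.1 times the fibroblast level of their library.

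Mmp14, the membrane-bound activator of the MMP2 precursor, ran in the opposite direction to Mmp2. In fibroblasts it stood at 287 CPM in flox-labelled and 299.9 CPM in control fibroblasts after infarction, and at 157 CPM in flox-labelled and 211 CPM in control cells without infarction. The infarction libraries were above the others in both genotypes, past the limit in the flox-labelled ones (log2 ratio 0.87 (0.82 to 0.92)) and short of it in the control ones (0.51 (0.46 to 0.56)). Endothelial cells differed far more. There Mmp14 stood at 205 CPM in flox-labelled and 244 CPM in control endothelial cells after infarction, and at 9.26 CPM in flox-labelled and 13.2 CPM in control cells without infarction, a 22.2-fold higher level with infarction in the flox-labelled libraries (log2 ratio 4.47 (4.27 to 4.67)) and an 18.5-fold higher one in the control libraries (4.21 (3.99 to 4.44)). The endothelial classes differed in make-up between these libraries. Within endothelial cluster 12, led by Prnd, Apln and Kit, which held 213 flox-labelled and 176 control cells after infarction and 349 and 215 without, the ratios were 3.82 (3.42 to 4.25) and 3.32 (2.79 to 3.90). In mural cells Mmp14 was 3.07-fold higher after infarction in the flox-labelled and 2.34-fold higher in the control libraries. Mural and fibroblast levels after infarction did not differ beyond their counting intervals, at 289 and 287 CPM in the flox-labelled and 337 and 299.9 CPM in the control library.

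Mmp9, the gelatinase of neutrophil granules, stood at 1619.6 CPM in flox-labelled and 1497 CPM in control neutrophils after infarction, and at 1495 CPM in the 103 flox-labelled neutrophils without it. These 3 levels lay within 1.5-fold of each other. Mmp8, the neutrophil collagenase, stood at 174 and 148 CPM after infarction, flox-labelled before control, against 598 CPM in flox-labelled neutrophils without it, 3.44-fold lower with infarction in the flox-labelled libraries. Most neutrophils without infarction fell into cluster 10, led by Retnlg, Asprv1 and S100a9, which held 657 of the flox-labelled neutrophils after infarction. Within that cluster the Mmp8 ratio between the same libraries was -0.36 (-0.57 to -0.15), under the limit. The larger cluster 0, led by Bcl2l15, Siglecf and Il1r2, held 2494 flox-labelled and 2976 control neutrophils, with Mmp8 at 104 and 103 CPM and Mmp9 at 1887 and 1562 CPM.

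The few UMIs of the neutrophil proteases in fibroblasts were set against free RNA. Fibroblasts after infarction held 507 UMIs of Mmp9 in the flox-labelled and 473 in the control library, and 70 and 76 of Mmp8. Per 1000 UMIs of the neutrophil genes S100a8 and S100a9, Mmp9 had 50.9 UMIs in flox-labelled and 27.8 in control fibroblasts, and 34.3 and 22.8 in the neutrophils of those libraries. Mmp8 had 7.02 and 4.46 in fibroblasts and 3.68 and 2.25 in neutrophils. The fibroblast ratios were above the neutrophil ones, with intervals that do not overlap, for both genes in both libraries. Mononuclear phagocytes stood far above either, with 215 and 115 for Mmp9 and 171 and 203 for Mmp8. With an estimate of free RNA subtracted, taken from the markers of other classes, fibroblast Mmp9 was 8.83 CPM in the flox-labelled and 10.8 CPM in the control library, against 14.3 and 14.7 CPM before. Mmp8 was 0.688 and 0.963 CPM, against 1.97 and 2.37 CPM before, and Mmp12 was 0 CPM in both, against 0.731 and 1.25 CPM before. All 8 neutrophil markers had UMIs in fibroblasts, with a summed level of 453 CPM in flox-labelled and 665 CPM in control cells after infarction and of 454 and 383 CPM without. Of these, S100a8 and S100a9 together stood at 280 CPM in flox-labelled and 530 CPM in control fibroblasts after infarction, and at 16.1 and 2.89 CPM without. Most of the sum without infarction thus came from other genes of the list.

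Mononuclear phagocytes were compared by cluster, because the first 10 genes of some clusters include genes from the marker lists of other classes. These were Pf4 and Ppbp of the platelet list in cluster 3 and Lyve1 of the lymphatic endothelial list in cluster 14. Cluster 3, led by Syngr1, Gpnmb and Spp1, held 1191 flox-labelled and 1493 control cells after infarction. Cluster 7, led by Dmkn, Ms4a4c and Ly6c2, a gene of inflammatory monocytes, held 868 and 932. Cluster 14, which also includes Timd4 and Cd163, markers of resident macrophages, held 342 flox-labelled and 523 control cells without infarction, and 9 and 0 after it. Mmp12, the macrophage elastase, was higher in cluster 3 than in cluster 7 and lower in the flox-labelled library in both. It stood at 117 CPM in flox-labelled and 186 CPM in control cells of cluster 3 (log2 ratio -0.67 (-0.74 to -0.61)) and at 13.6 and 24.8 CPM in cluster 7 (-0.87 (-1.13 to -0.61)). Mmp9 went the other way, with 90.9 CPM in flox-labelled and 36.1 CPM in control cells of cluster 3 (1.33 (1.23 to 1.44)) and 50.5 and 22.3 CPM in cluster 7 (1.18 (0.98 to 1.37)). In cluster 3, 2 of 7 measured members, Mmp9 and Timp3, were higher and 1, Mmp12, lower, against a background of 7.58% and 1.90% of all genes measured there. Over the whole class Timp3 stood at only 4.10 CPM in flox-labelled and 0.447 CPM in control cells after infarction. Free RNA was not subtracted within clusters, and its part in the Timp3 of cluster 3 was not tested. In cluster 7, 2 of 6 passed the limit, against 5.87%. Summed over all clusters of the class, whose make-up differed, 5 of 9 passed it after infarction and 3 of 7 without, against 8.32% and 12.6%. With free RNA subtracted the 5 were 3, with Mmp2 and Mmp3 at 0 CPM in both libraries and Timp3 at 0.330 CPM in the flox-labelled and 0 CPM in the control one. Mmp8 did not pass the limit in cluster 3 or 7, at 45.5 and 49.5 CPM in cluster 3 and 115 and 122 CPM in cluster 7.

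Without infarction, cluster 14 had Mmp12 at 44.0 CPM in flox-labelled and 31.7 CPM in control cells and Mmp9 at 8.94 and 4.97 CPM. Its Timp2 level, 705 CPM in flox-labelled and 746 CPM in control cells, was above the 281 and 235 CPM of cluster 3 after infarction and the 88.1 and 63.8 CPM of cluster 7. Mmp14 was the reverse, at 5.96 and 5.18 CPM in cluster 14 against 126 and 109 CPM in cluster 3 and 96.6 and 65.8 CPM in cluster 7, flox-labelled before control throughout. These clusters hold different cells at different times, and a change within 1 kind of cell cannot be told apart from a change of cells.

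Timp1, an inhibitor induced by injury in many tissues, had the widest difference with infarction in fibroblasts among the members with at least 30 UMIs in both sums. It stood at 3294 CPM in flox-labelled and 3250.2 CPM in control fibroblasts after infarction, and at 49.7 CPM in flox-labelled and 106 CPM in control cells without infarction. Both infarction libraries lay far above both others. The log2 ratio of infarction against none was 6.05 (5.97 to 6.13) in the flox-labelled libraries, 66.3-fold higher, and 4.94 (4.88 to 5.01) in the control ones, 30.8-fold higher. Between the infarction libraries the ratio was 0.02 (0.01 to 0.03), and without infarction the flox-labelled level was 2.13-fold lower (-1.09 (-1.19 to -0.99)). Of fibroblasts thinned to 2000 UMIs, 68.1% of flox-labelled and 87.6% of control cells had a Timp1 UMI after infarction, against 6.79% and 7.84% without. The same shares of B cells were 3.06% and 5.46% after infarction and 0% and 0.275% without, the 0% again on 151 cells. Before thinning the fibroblast shares were 85.7% and 94.6% against 28.3% and 28.2%.

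The other 3 inhibitors were lower in fibroblasts after infarction. Timp2, which inhibits MMP2 and also takes part in its activation, stood at 505 CPM in flox-labelled and 290.5 CPM in control fibroblasts after infarction, and at 1347 CPM in flox-labelled and 1447 CPM in control cells without infarction. Infarction against none gave -1.41 (-1.44 to -1.39) in the flox-labelled and -2.32 (-2.35 to -2.28) in the control libraries. Timp3, the matrix-bound inhibitor, stood at 191 CPM in flox-labelled and 109 CPM in control fibroblasts after infarction, and at 737 CPM in flox-labelled and 873 CPM in control cells without infarction, with ratios of -1.95 (-1.99 to -1.91) and -3.00 (-3.05 to -2.95). For both genes the control infarction library was lowest, and the flox-labelled one lay 1.74-fold above it for Timp2 (0.80 (0.76 to 0.84)) and 1.75-fold above it for Timp3 (0.81 (0.75 to 0.87)). Timp4 had few fibroblast UMIs, with 20 flox-labelled and 1 control UMI after infarction and 115 and 183 without, levels under 0.1 times those of endothelial cells.

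**Figure D3:**
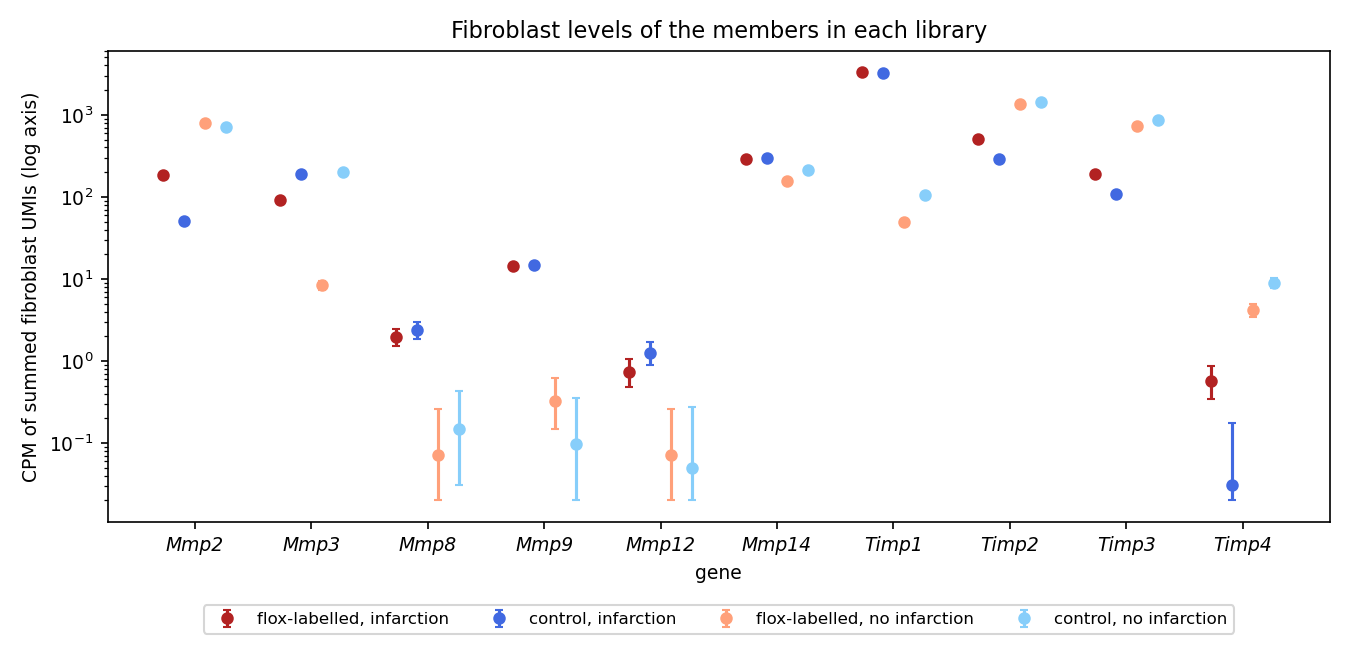
Points give the CPM of each member over the summed UMIs of fibroblasts in each library, on a log axis, and bars give the exact 95% Poisson interval of the count, cut at 0.02 CPM. Timp1 is high and Mmp2, Timp2, Timp3 and Timp4 are low in both infarction libraries, and Mmp3 is low in the flox-labelled library without infarction.

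Counted over the set, infarction against none gave 5 higher and 4 lower of 9 measured members in flox-labelled fibroblasts, against a background of 19.3% higher and 31.9% lower of all genes measured there. In control fibroblasts it gave 4 higher and 4 lower of 10, against 24.6% and 39.2%. The lower members were Mmp2, Timp2, Timp3 and Timp4 in both genotypes. Mmp8, Mmp9 and Timp1 were higher in both, Mmp3 and Mmp14 in the flox-labelled and Mmp12 in the control libraries. Mmp8, Mmp9 and Mmp12 had between 1 and 9 UMIs in each library without infarction, and with free RNA subtracted the counts were 4 higher and 4 lower in the flox-labelled and 2 and 4 in the control libraries. The median log2 ratios were 0.87 in the flox-labelled and 0.21 in the control libraries, against -0.21 and -0.28 over all genes. Flox-labelled against control fibroblasts gave 3 higher (Mmp2, Timp2, Timp3) and 2 lower (Mmp3, Mmp12) of 9 members after infarction, against 10.4% and 3.41% of all genes. Mmp12 is counted there on 26 and 40 UMIs. Its ratio was 0.47 with doublets not removed, and with free RNA subtracted its level was 0 CPM in both libraries, which leaves 3 higher and 1 lower. Without infarction it gave 0 higher and 3 lower (Mmp3, Timp1, Timp4) of 7, against 7.30% and 5.22%. The medians were -0.05 after infarction and -0.42 without, against 0.04 and -0.02 over all genes.

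Different clusters held most fibroblasts of the infarction libraries. Cluster 6, led by Cxcl5, Cthrc1 and Steap1 with Timp1 and Tnc among its first 10 genes, held 877 of the flox-labelled and 947 of the control fibroblasts after infarction, and 6 and 4 without. Cluster 2, led by Inmt, Col6a6 and Gfra1, held 278 flox-labelled and 6 control cells after infarction, and 1621 and 1513 without. Cluster 11, led by Sema3c, Tmem100 and Dio2 with Comp and Cilp, held 330 and 34 after infarction and 354 and 367 without. Genes whose names begin with Mmp or Timp took no part in the clustering.

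Within cluster 6 the infarction libraries lay closer together than over all fibroblasts for Mmp2, Mmp3, Timp2 and Timp3, and further apart for Timp1. Mmp2 stood at 72.3 CPM in flox-labelled and 45.2 CPM in control cells (0.68 (0.58 to 0.78)), Timp2 at 341 and 279 CPM (0.29 (0.25 to 0.33)) and Timp3 at 105 and 103 CPM (0.03 (-0.05 to 0.10)). So Mmp2 still passed the limit there, and Timp2 and Timp3 did not. Mmp3 remained lower in the flox-labelled cells, at 108 against 189.6 CPM (-0.81 (-0.87 to -0.75)). Of 9 measured members 1, Mmp2, was higher and 2, Mmp3 and Mmp12, were lower in this cluster, against 3.48% and 2.43% of all genes. Timp1 stood at 3983 and 3274 CPM and Mmp14 at 305 and 302 CPM, both under the limit.

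The 278 flox-labelled cells of cluster 2 after infarction had Mmp2, Timp2 and Timp3 levels near those of the same cluster without infarction. Their Mmp2 level was 833 CPM against 792 CPM without infarction, that of Timp2 1061 against 1125 CPM and that of Timp3 625 against 685 CPM. These ratios were 0.07 (0.01 to 0.13), -0.08 (-0.14 to -0.03) and -0.13 (-0.20 to -0.06), all within the limit. Timp1 and Mmp3 differed even there, with Timp1 at 154 against 28.6 CPM (2.43 (2.25 to 2.60)) and Mmp3 at 50.1 against 10.5 CPM (2.25 (1.95 to 2.56)). In cluster 11 the flox-labelled levels with infarction lay between those of clusters 2 and 6 for Mmp2, Mmp14, Timp1 and Timp3. The low flox-labelled Mmp3 level without infarction was seen in both clusters, at 10.5 against 250.2 CPM in cluster 2 (-4.57 (-4.77 to -4.38)) and 0.839 against 47.2 CPM in cluster 11 (-5.82 (-7.45 to -4.57)).

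**Figure D4:**
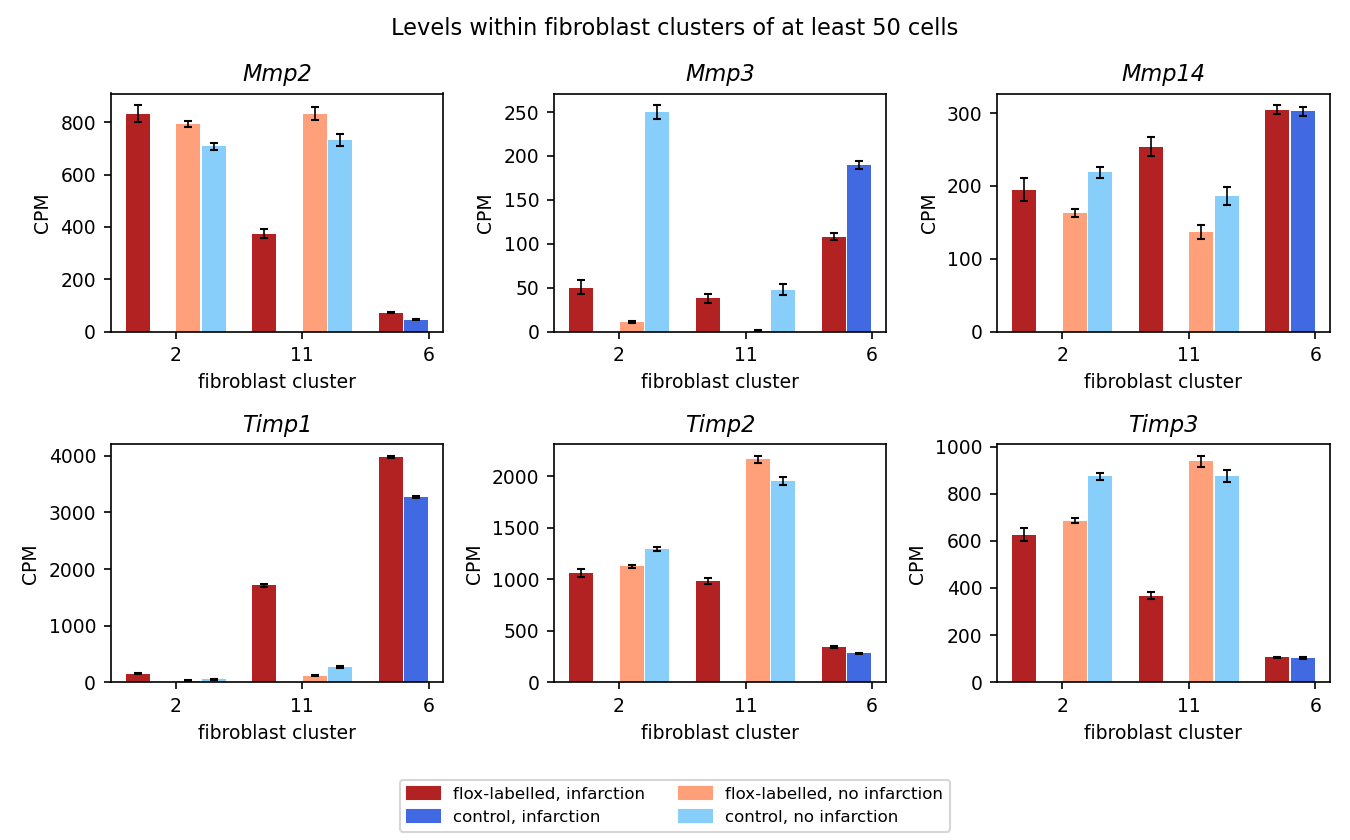
Bars give CPM within fibroblast clusters 2, 11 and 6 for 6 members, with exact 95% Poisson intervals, and a library with under 50 cells in a cluster has no bar. Mmp2, Timp2 and Timp3 are low and Timp1 is high in cluster 6, while the flox-labelled infarction bar of Mmp2 in cluster 2 is as high as those without infarction.

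Timp3 and Timp4 of endothelial cells differed between the genotypes in opposite directions with and without infarction. Timp4 stood at 74.6 CPM in flox-labelled and 10.3 CPM in control endothelial cells after infarction, and at 283 CPM in flox-labelled and 581 CPM in control cells without infarction. It was lower after infarction in both genotypes, 3.80-fold in the flox-labelled (-1.92 (-2.09 to -1.76)) and 56.7-fold in the control libraries (-5.82 (-6.43 to -5.28)). Timp3 stood at 584 CPM in flox-labelled and 261 CPM in control endothelial cells after infarction, and at 633 CPM in flox-labelled and 1250.3 CPM in control cells without infarction, with ratios of infarction against none of -0.11 (-0.18 to -0.05), under the limit, and -2.26 (-2.37 to -2.15). After infarction 2 of 7 measured members were higher and 1 was lower in flox-labelled endothelial cells, against 10.0% and 2.69% of all genes. The lower one was Mmp2, at 6.38 CPM in flox-labelled and 23.9 CPM in control cells, a log2 ratio of -1.91. In fibroblasts its direction was the opposite. Without infarction 0 of 6 were higher and 3, Mmp3, Timp3 and Timp4, were lower, against 7.65% and 6.02%. Endothelial Mmp3 was then under 0.1 times the fibroblast level. With free RNA subtracted it was 0.0819 CPM in flox-labelled and 2.50 CPM in control cells, against 0.171 and 4.72 CPM before. Infarction against none gave 4 higher and 2 lower of 7 in the flox-labelled libraries, against 18.5% and 24.6%, and 3 and 3 of 8 in the control ones, against 24.5% and 34.8%. The higher members include Mmp9 and Timp1 in both. The summed level of 8 neutrophil markers in endothelial cells was 823 CPM in flox-labelled and 1001 CPM in control cells after infarction, against 47.1 and 27.0 CPM without. With free RNA subtracted, endothelial Timp1 after infarction was 20.4 CPM in flox-labelled and 18.6 CPM in control cells, against 53.7 and 40.6 CPM before.

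The make-up of the endothelial class differed as well. After infarction, the capillary cluster 1, led by Aqp1 and Aplnr with Timp4 and Car4 among its first 10 genes, held 104 flox-labelled and 6 control cells, and the arterial-gene cluster 4, led by Sema3g and Alox12, held 86 and 11. In cluster 12, the only endothelial cluster with at least 50 cells in all 4 libraries, Timp4 stood at 8.09 CPM in flox-labelled and 7.55 CPM in control cells after infarction, on 20 and 16 UMIs, and at 131 and 149.5 CPM without. Timp3 in this cluster kept both directions, with 312 against 193 CPM after infarction (0.70 (0.52 to 0.87)) and 532 against 940.3 CPM without (-0.82 (-0.93 to -0.71)). Without infarction, flox-labelled Timp3 and Timp4 were lower past the limit in endothelial clusters 1, 4, 5 and 15, with Timp4 ratios of -0.86, -1.22, -1.65 and -1.09 and Timp3 ratios of -1.03, -1.15, -0.83 and -1.04. In cluster 20, led by Vwf and Plvap, neither passed it (-0.11 and -0.26). In mural cells Timp3 stood at 316 CPM in flox-labelled and 89.5 CPM in control mural cells after infarction, and at 360.3 CPM in flox-labelled and 615 CPM in control cells without infarction. The 77 control mural cells after infarction stood apart in 5 erythroid markers, summed at 28.0 CPM in flox-labelled and 5698 CPM in control cells after infarction and at 73.9 and 23.4 CPM without. The 11 fibroblast markers in mural cells summed to 3455 and 4224 CPM after infarction and 1837 and 2409.7 CPM without, and the part of either in the mural levels was not tested. With free RNA subtracted, mural Timp3 after infarction was 319 CPM in flox-labelled and 90.7 CPM in control cells. Of 6 measured members 1, Timp3, was higher and 0 were lower in the flox-labelled library after infarction, against 12.5% and 3.64%. Without infarction 0 of 4 were higher and 2, Timp3 and Mmp14, were lower, against 13.1% and 12.2%. Infarction against none gave 4 higher and 1 lower of 6 in the flox-labelled mural cells, against 15.3% and 27.0%, and 2 and 2 of 5 in the control ones, against 26.4% and 34.6%. Within pericyte-gene cluster 16, led by Kcnj8 and Vtn, the Timp3 ratios were 1.98 (1.64 to 2.34) after infarction and -1.15 (-1.33 to -0.97) without.

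**Figure D5:**
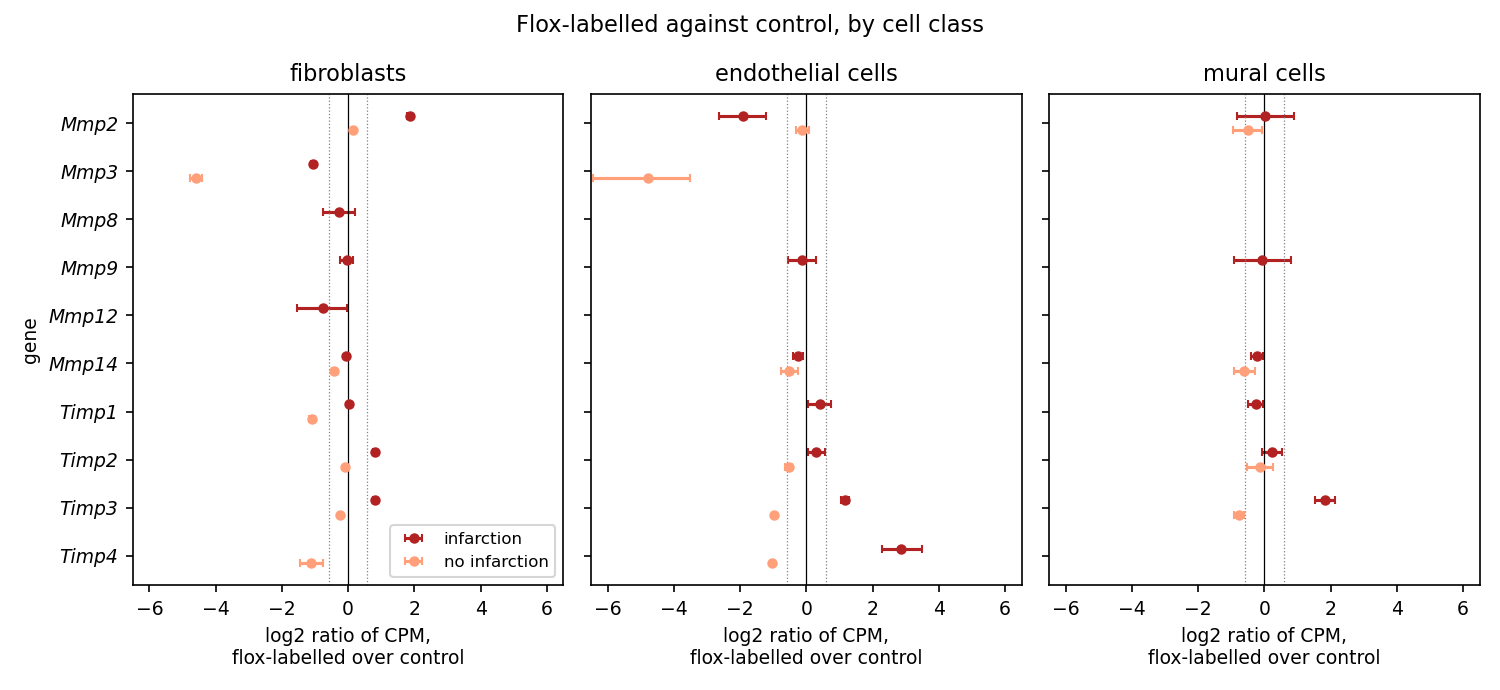
Points give the log2 ratio of CPM, flox-labelled over control, with exact 95% Clopper-Pearson intervals, for members with at least 30 UMIs in 1 of both sums. Dotted lines mark 1.5-fold. Timp3 of endothelial and mural cells and Timp4 of endothelial cells lie above 0 after infarction and below 0 without it.

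Timp3 and Timp4 were also found in flox-labelled neutrophils after infarction, at 78.9 and 22.4 CPM, against 11.04 and 0.257 CPM in control neutrophils. Neutrophil cluster 28, with 93 flox-labelled and 13 control cells, held them, with Timp3 at 723 CPM and Timp4 at 210.3 CPM in the flox-labelled cells, and its first 10 genes include Ctla2a, Grrp1 and Sema3f. The cells of cluster 28 were deeper in UMIs than those of every other neutrophil cluster. Whether doublets remained in cluster 28 was not tested. In cluster 0 the flox-labelled Timp3 level was 8.56 CPM and the control one 2.43 CPM. All 11 endothelial markers had UMIs in neutrophils of both libraries, with a summed level of 2501 CPM in flox-labelled and 500.4 CPM in control cells. Their part in these Timp levels was not tested. Of the measured members, 3 of 9 (Mmp2, Timp3, Timp4) were higher and 1 (Mmp12) was lower in flox-labelled neutrophils, against 11.8% and 3.16% of all genes. With free RNA subtracted, Mmp2 was 4.35 CPM in flox-labelled and 0.0348 CPM in control neutrophils, against 6.47 and 1.03 CPM before. Mmp12 was 0.584 and 0 CPM, against 2.08 and 4.62 CPM before. Timp3 was 78.0 and 9.07 CPM and Timp4 23.0 and 0.252 CPM after the same step.

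Timp1, Timp3 and Timp4 each lie inside a synapsin gene, Syn1, Syn3 and Syn2, on the opposite strand. Cep295nl overlaps Timp2 on the same strand. Where a counter ignores strand, reads of a gene and its antisense partner cannot be told apart, and how strand was handled is not given in the sources used here. The host genes had far fewer UMIs in most libraries, at 364 UMIs of Syn1 against 124030 of Timp1 in the flox-labelled and 336 against 111497 in the control infarction library. For Timp4 in the control infarction library, 35 UMIs of Syn2 stood against 36 of Timp4, so that level is uncertain.

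Other proteases and inhibitors were described from lists, counted by the same limit in fibroblasts. Where parentheses hold a pair of ratios, the flox-labelled libraries come before the control ones. Of 16 other matrix metalloproteinases in the feature lists, 8 were measured (all genes stood at 19.3% higher and 31.9% lower in the flox-labelled and 24.6% and 39.2% in the control libraries, for this and the lists that follow), and 0 were higher and 4 lower after infarction in the flox-labelled libraries and 0 and 5 in the control ones. Mmp15, a membrane-type enzyme, was lowest in both (1.12 against 5.36 CPM, log2 ratio -2.25 in the flox-labelled and 0.249 against 2.36 CPM, log2 ratio -3.24 in the control libraries). Outside fibroblasts, Mmp13, a collagenase at the edge of the chromosome 9 row, was highest in mononuclear phagocytes in all 4 libraries. It stood at 8.54 and 5.37 CPM there after infarction and at 87.4 and 109 CPM without, flox-labelled before control, the opposite order to that of its neighbour Mmp12 over the same class.

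Of 22 ADAM and ADAMTS enzymes, 21 were measured in flox-labelled and 20 in control fibroblasts, and 6 were higher and 7 lower after infarction in the flox-labelled and 5 and 9 in the control libraries, shares near those of all genes. Adam12 was highest (61.2 against 1.88 CPM, log2 ratio 5.02; 76.0 against 1.86 CPM, log2 ratio 5.35) and Adamts15 was lowest (6.80 against 27.9 CPM, log2 ratio -2.04; 1.74 against 22.5 CPM, log2 ratio -3.69). Of 12 plasminogen activation genes, which make and restrain the protease plasmin, 5 of 10 measured were higher and 1 lower in the flox-labelled libraries and 5 of 11 higher and 5 lower in the control ones. Plau, the urokinase activator, was lower (7.93 against 35.7 CPM, log2 ratio -2.17; 7.82 against 60.9 CPM, log2 ratio -2.96), and Plaur, the urokinase receptor, was higher in both (log2 ratio 3.14; 54.8 against 7.61 CPM, log2 ratio 2.85).

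Of 18 genes for activation, docking and clearance of metalloproteinases, 17 were measured, and 9 were higher and 5 lower after infarction in the flox-labelled and 7 and 6 in the control libraries. Pcsk6, a proprotein convertase, was lowest (106 against 909 CPM, log2 ratio -3.10 in the flox-labelled libraries, and log2 ratio -5.24 in the control ones) and Lcn2, which binds MMP9, was among the highest (36.5 against 0.615 CPM, log2 ratio 5.89; 21.8 against 2.70 CPM, log2 ratio 3.02). Of 11 cathepsins and cystatins, 3 were higher and 2 lower in the flox-labelled and 4 and 4 in the control libraries, with Ctsc highest (31.3 against 2.79 CPM, log2 ratio 3.49; 34.3 against 4.42 CPM, log2 ratio 2.96) and Cst3, the inhibitor cystatin C, lowest (1048 against 2768 CPM, log2 ratio -1.40; 679.9 against 2905 CPM, log2 ratio -2.10). Of 5 genes of neutrophil granules, most of them serine proteases, 3 were measured in fibroblasts, and 2 were higher and 0 lower in both. The 2 were Mpo (log2 ratio 4.26; 4.30) and Prtn3 (2.98; 2.21). Free RNA was not subtracted for the genes of these lists. Its part in the fibroblast levels of Mpo, Prtn3 and Lcn2, which neutrophils also make, was not tested. The medians of the lists ran from -0.57 to 2.98 in the flox-labelled and from -1.34 to 2.21 in the control libraries. The highest median in both was that of the granule genes.

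Flox-labelled against control fibroblasts after infarction, the same lists gave 1 of 8 other metalloproteinases, 5 of 20 ADAM and ADAMTS enzymes, 2 of 10 plasminogen genes, 7 of 17 genes of activation and clearance, 0 of 3 granule genes and 1 of 11 cathepsins and cystatins higher, and none of any list lower, against 10.4% higher and 3.41% lower of all genes. With so low a share of lower genes, 0 lower is not apart from the background in lists of this size. Adamts5, which cuts versican and aggrecan, stood at 284 against 125 CPM (log2 ratio 1.18), Serpine2 at 192 against 81.6 CPM (1.24) and Pcsk6 had a log2 ratio of 2.14. Without infarction 5 of 10 plasminogen genes were lower and 0 higher, against 5.22% and 7.30%. The other lists gave between 0 and 3 lower and between 0 and 1 higher. The cluster make-up given above bears on these counts too, and its part in them was not tested.

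The genes most like each member were found by Pearson's r of log2(CPM + 1) over 28 class sums, which share their library in groups, as a description. For Mmp2 these were Dcn (r = 0.97), Aldh1a1 (0.94) and Lum (0.94). For Mmp3 they were Sfrp1 (0.89), Ccn5 (0.88) and Sfrp2 (0.87). Mmp8 was most like Padi4 (0.98), and Mmp9 most like Trem1 (0.96), Il1r2 (0.95) and Csf3r (0.95), the G-CSF receptor of neutrophils. Mmp12 was most like Abcc3 (0.96) and C3ar1 (0.95), and Mmp14 most like Ssr3 (0.92). Timp1 was most like Ostc (0.93), Cxcl5 (0.91) and Tnc (0.89), the gene of the injury matrix protein tenascin C. Timp2 was most like Rnase4 (0.92), Timp3 most like Nfib (0.98) and Sparcl1 (0.97), and Timp4 most like Aqp7 (0.97), Clic5 (0.97) and Btnl9 (0.96).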

How the data were processed

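Single-cell RNA was measured in 4 libraries of mouse heart interstitial cells, 1 per group. The authors deposited raw UMI counts per gene and barcode with cells already called, made with Cell Ranger 5.0.1 on mm10, per the submitters' processing notes. Further steps are not given in the sources used here.

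Barcodes with at least 500 UMIs, 200 genes and at most 20% mitochondrial UMIs were kept. Doublets were removed by a score from simulated pairs at 0.8% per 1000 barcodes, which took out 655 to 1032 barcodes per library. Cells were clustered together on 2000 variable genes without Mmp and Timp genes, with 30 components, 20 neighbours and Leiden resolution 1.0 (scanpy 1.11.5, igraph 0.11.9, scikit-learn 1.9.0). Of 31 clusters, 4 stayed unnamed. Clusters were named from marker lists by the highest mean excess in share of cells. They were left unnamed where 2 or more extra markers of some other class stood among the 10 leading genes, where the excess was low or under 3 markers were found, or where shallow cells had no own marker among those genes. The margin of 2 was set after seeing the data. Counts were summed per class and library. In ratios, sums under 3 UMIs were raised to 3. Intervals are exact 95% Poisson or Clopper-Pearson intervals (scipy 1.17.1) and cover counting error only. No count test was run. The ratio script was tested on simulated data.

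Named genes were all members, the 3 most similar genes of each (at least 50 CPM in 1 class sum), and the 2 highest and 2 lowest of each other list per comparison in fibroblasts, from which those in the text were taken. The members and lists were chosen with earlier results of these data known. Gene positions are from GENCODE vM21 on GRCm38. There were 12 alternative settings. A gene of the plasminogen list is not reported here by name.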

Additional observations from a re-analysis of the deposited data

Results flagged for a closer look

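In endothelial cells the flox-labelled over control log2 ratio of Timp3 was 1.16 after infarction and -0.98 without it, and that of Timp4 was 2.86 after infarction and -1.04 without it. In mural cells the ratio of Timp3 was 1.82 after infarction and -0.77 without it. What sets these results apart is that the genotypes differed in opposite directions under the 2 conditions, each past 1.5-fold. With 1 library per group the difference between the conditions was not tested. Within single clusters present in all 4 libraries, Timp3 went the same ways, with 0.70 after infarction and -0.82 without in endothelial cluster 12 and 1.98 and -1.15 in mural cluster 16. Timp4 in endothelial cluster 12 stood at 8.09 CPM in flox-labelled and 7.55 CPM in control cells after infarction, where both libraries had under 30 UMIs. The Timp4 ratio of 2.86 rests on few control UMIs, as endothelial cells held 75.0% of only 36 in the control infarction library. Syn2 on the opposite strand had 35 UMIs there, so that level is uncertain. Capillary cluster 1 held 104 flox-labelled and 6 control cells after infarction.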

How the results depend on the processing

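No paired analysis was possible because the groups hold 1 library each. Of 195 values of counts of members past 1.5-fold and of members by source under 12 settings, 186 lay within 1.5 times the reported one and 9 did not. Flox-labelled against control after infarction was not among these counts for endothelial and mural cells, and single ratios were rerun in fibroblasts only. The flagged Timp3 and Timp4 ratios were therefore not rerun under these settings. With the 2-fold limit, flox-labelled against control gave 2 members against 5 in fibroblasts after infarction, 0 against 2 in mural cells and 0 against 3 in mononuclear phagocytes without infarction. At 10 UMIs, it gave 5 against 3 in endothelial cells and 5 against 3 in mononuclear phagocytes without infarction. With doublets not removed, mural cells gave 4 against 2 between genotypes without infarction and 7 against 4 for infarction against none in control libraries. Median-of-ratios scaling gave 1 against 2 in mural cells without infarction, and with free RNA subtracted mononuclear phagocytes gave 3 against 5 between genotypes after infarction. Among single fibroblast ratios 331 values stayed within the counting interval and 46 did not. Of the ratios past 1.5-fold 1 changed sign, that of Mmp12 between genotypes after infarction, at 0.47 with doublets not removed against -0.77. Ratios under 1.5-fold changed sign too, with extremes of -0.26 against 0.02 for Timp1, 0.12 against -0.27 for Mmp8 and 0.14 against -0.05 for Mmp9 between genotypes after infarction, and 0.24 against -0.08 for Mmp3 between infarction and none in control libraries. Apart from the limits themselves and from subtracting free RNA, these settings change which cells or scale enter, and the cause of each move was not tested. The margin of 2 extra markers for leaving a cluster unnamed, and its stricter alternative of any excess, were both chosen after seeing the data. With 1 library per group the spread between animals is unknown, and Mmp8, Mmp12 and Timp4 of fibroblasts rest on few UMIs.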
